A study of Mus musculus with 10 samples.

Results

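The genes described here are 8 noncoding genes of the mouse that carry small nucleolar RNAs (snoRNAs) in their introns: Gas5, Snhg1, Snhg3, Snhg5, Snhg6, Snhg8, Snhg12 and Zfas1. They were taken by symbol from the 55487 genes of 3 RNA-seq tables, and all 8 were found. The series holds 10 samples of E14, a mouse embryonic stem cell line, in which R-loops (an RNA strand paired with 1 strand of DNA) were mapped by MapR and BisMapR, and RNA was sequenced in 3 replicates. Of these samples, the 7 with R-loop data are not analysed here. The RNA-seq cells carried no stated genetic change and were grown in serum with LIF and with inhibitors of GSK and of MEK1/2. Their RNA was treated with DNase and depleted of ribosomal RNA, and the libraries were directional. All samples form 1 group, so no treatment was compared. The labels do not say whether the replicates were separate cultures, so their spread may be technical.

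A snoRNA host gene is transcribed by RNA polymerase II, and its introns are spliced out and trimmed to free the snoRNAs. Box C/D snoRNAs, named for their C and D boxes, guide ribose methylation of ribosomal RNA, and box H/ACA snoRNAs guide its pseudouridylation. In noncoding hosts the spliced exons hold no long reading frame. Many of these spliced RNAs are known to be removed by nonsense-mediated decay, a pathway that degrades RNAs with an early stop codon. Host genes often start with a C followed by a run of pyrimidines, the 5′ terminal oligopyrimidine (TOP) motif, which ties translation of such RNAs to growth signals. In rapidly dividing cells such as stem cells, ribosome production is high.

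Estimated counts summed to 11420425, 6467405 and 5787357 in replicates 1, 2 and 3, of which the 8 genes took 0.0494%, 0.0553% and 0.0469%. Summed TPM (abundance scaled by gene length and by library total) of 8 pluripotency genes was from 1137 to 1597. Of 7 fibroblast markers, which feeder cells would bring, Col3a1, Postn, Lum and Dcn were at 0 counts in every replicate and the summed TPM was from 1.24 to 3.37, nearly all of it from Thy1. Of 6 early differentiation genes none reached a mean TPM of 1.

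All 8 hosts were expressed, at mean TPM from 9.26 to 91.8. For comparison, 2.41% of the 9903 other annotated long noncoding genes and 19.8% of all genes reached a mean TPM of at least 1. Values below are mean TPM ± SD over n = 3 replicates. Counting error is part of that spread: the smallest count, 74 for Snhg6 in replicate 3, has an exact Poisson 95% interval of 58.1 to 92.9.

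Snhg1 (ENSMUSG00000108414, chr19:8723475-8726443, + strand of GRCm38), which carries 8 annotated snoRNA genes, was the most abundant. Its TPM was 110.2, 103.5 and 61.7 in replicates 1, 2 and 3 (91.8 ± 26.3). Replicate 3 was the low one, and even it lay above every value of the other 7 genes.

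Zfas1 (ENSMUSG00000074578, chr2:167062934-167065862, + strand) and Gas5 (ENSMUSG00000053332, chr1:161034422-161038539, + strand) followed. Zfas1, host of 3 snoRNA genes and named for its place antisense to Znfx1, had 58.4, 43.4 and 32.8 TPM (44.9 ± 12.9). Gas5, found as a transcript that accumulates when growth is arrested and host of 10 annotated snoRNA genes, had 45.6, 51.0 and 35.7 TPM (44.1 ± 7.76). These genes could not be ordered, since Zfas1 was higher in 1 of 3 replicates and their log2 ratio was 0.00 ± 0.31.

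Snhg3 (ENSMUSG00000085241, chr4:132348014-132353686, − strand), host of Snora73a and Snora73b, had 43.1, 33.1 and 23.1 TPM (33.1 ± 9.98). It lay below Gas5 in all 3 replicates, though the ranges of the 2 genes overlapped. Snhg5 (ENSMUSG00000097195, chr9:88521050-88522929, − strand), host of Snord50a and Snord50b, had 22.2, 21.8 and 14.8 TPM (19.6 ± 4.12). All 3 of its values were below those of Snhg3.

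Snhg12 (ENSMUSG00000086290, chr4:132308623-132311024, + strand), which mixes both snoRNA classes, had 17.5, 16.9 and 14.2 TPM (16.2 ± 1.77). Snhg8 (ENSMUSG00000104960, chr3:123507552-123508404, − strand), host of Snora24, had 13.7, 16.7 and 16.7 TPM (15.7 ± 1.73). Snhg12 and Snhg8 did not differ beyond their spread, with a log2 ratio of 0.05 ± 0.30. Snhg6 (ENSMUSG00000098234, chr1:9941959-9944118, − strand), host of Snord87, was the lowest at 9.53, 10.9 and 7.38 TPM (9.26 ± 1.76), and its range overlapped with that of no other host.

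**Figure D1:**
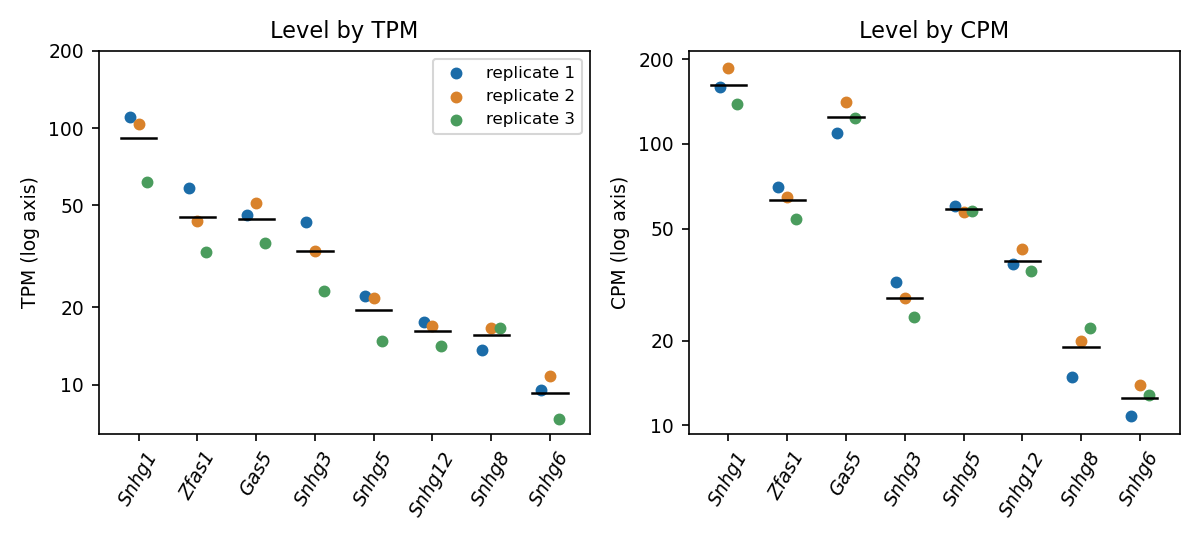
Level of each noncoding host in the 3 replicates, as TPM on the left and as CPM (counts scaled by library total, not by length) on the right, both on log axes; points are replicates and lines their means. Snhg1 is highest and Snhg6 lowest on both scales, while Snhg3, the shortest of the 8, falls from the fourth place by TPM to the sixth by CPM.

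Set against other genes, the hosts lay high among noncoding RNAs. Their median log2(TPM + 1) was 4.72 ± 0.32 (SD, n = 3), which was 2.93 ± 0.14 above the median of the 239 other long noncoding genes that passed this level. The size of this difference depends on the filter. It was 1.31 at a mean TPM of at least 5 and 4.62 over those with any counts. Of those 239 genes, 33 lay above Snhg6 and 6 above Snhg1. Protein-coding genes that hold an annotated snoRNA gene on the same strand numbered 279, and 209 of them (74.9%) reached a mean TPM of 1. The 8 hosts lay 0.83 ± 0.12 above the median of those 209. Without scaling by length this turned round, to −1.03 on the log2(CPM + 1) scale, so the direction holds per unit of length only. Ribosomal protein genes made up 29 of the 209 and had a median of 255 TPM, against 10.9 TPM for the other 180. The members were chosen by name, with earlier results of these data known, and no test was made of these differences.

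**Figure D2:**
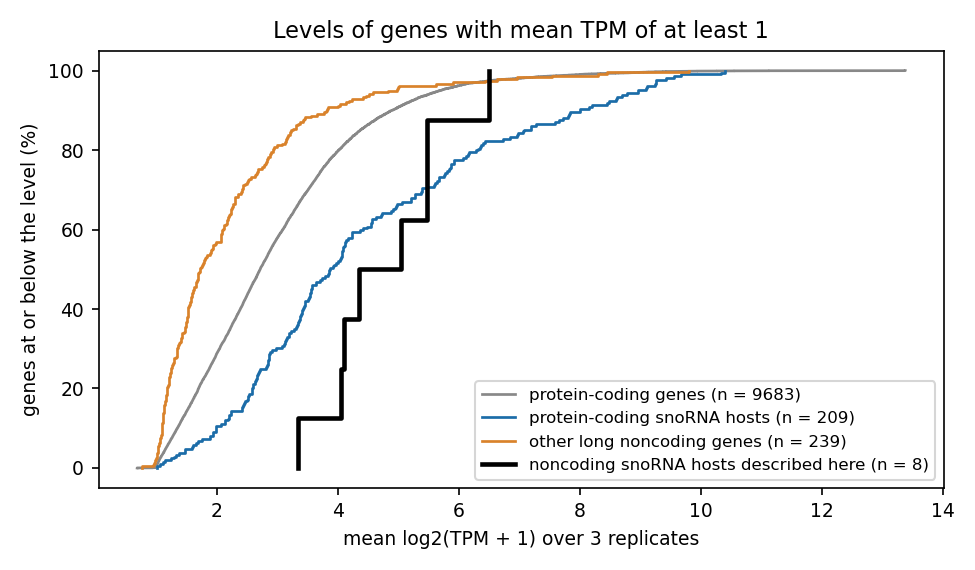
Cumulative share of genes (vertical axis, %) at or below each mean log2(TPM + 1), for genes with a mean TPM of at least 1: all protein-coding genes, protein-coding snoRNA hosts, other long noncoding genes, and the 8 noncoding hosts. The 8 hosts run from 3.34 to 6.49, to the right of most other long noncoding genes and below the upper end of the protein-coding hosts.

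The annotation holds 61 other long noncoding genes with a snoRNA gene inside. Of these, 19 averaged 1 TPM or more, with a median log2(TPM + 1) of 3.31 ± 0.35, and 6 lay above the median of the 8 hosts. Among them were Cct6a at 85.6 ± 3.61 TPM, 1110038B12Rik at 59.0 ± 2.17 TPM and 2410006H16Rik at 31.9 ± 9.82 TPM. These were named after their values were seen. Cct6a is in this set by its annotated type, though its symbol is that of a chaperonin subunit, so the noncoding sets may hold coding genes. Of a list of 15 further host names, 12 were matched and 9 of those averaged 1 TPM or more, with a median of 2.64 ± 0.32 over the 12. In this annotation Mir17hg of that list holds no snoRNA gene and Snhg11 is typed as protein-coding. Rian, an imprinted RNA of chromosome 12 that carries 13 annotated snoRNA genes, was above every gene described here at 189 ± 43.3 TPM. Snhg15 had 12.6 ± 0.57 TPM and Snhg17 11.8 ± 2.57 TPM, both between Snhg6 and Snhg8. Snhg9, Snhg10 and Snhg18 stayed under 1 TPM. The genes whose TPM profile was nearest to the median profile of the 8 hosts were Suclg2, Arf5 and Ctnna1, with root mean square differences of 0.04, 0.04 and 0.05 in log2(TPM + 1) over the 3 replicates. Suclg2 had 31.6, 26.3 and 18.8 TPM. Since these genes were picked for a like profile, a low replicate 3 follows from the choice. It was also common, since replicate 3 was the lowest in TPM for 75.6% of the 11000 expressed genes.

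The start sites were examined for the TOP motif, taken here as a C followed by at least 4 bases that are each C or T. At the most upstream start in GENCODE, Snhg6 and Snhg8 carried it, 2 of 8 genes, against 1.90% of all genes. The most upstream start may be a rare one, so all annotated transcript starts were read as well. Of 69 distinct starts of the 8 genes, 9 (13.0%) began with the motif, against 2.04% of 132393 starts of all genes. Each gene but Snhg1 had at least 1 such start, 7 of 8, against 10.7% of expressed genes (mean TPM of 1 or more) and 46 of the 209 protein-coding hosts. A gene with many starts has more chances, and Gas5 and Snhg1 had 20 and 17.

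RefSeq promoter windows (GRCm38.p6) were found for 7 of the 8 genes; Snhg6 had none. The following stretches run from 50 bases before the RefSeq start to 49 after it, so that base 51 is the first transcribed base; capitals mark the copy of the motif that begins nearest to the start, where one begins within 10 bases of it. Pyrimidines just before that copy are left in lower case. The stretches are shown because they hold the motif at or near the start or, in Snhg1, hold no copy of the motif there. The windows are chr1:161035116-161035215 (+) for Gas5 (the second of its RefSeq windows; the first holds no such motif), chr3:123508287-123508386 (−) for Snhg8, chr4:132308628-132308727 (+) for Snhg12, chr4:132353637-132353736 (−) for Snhg3, chr9:88522848-88522947 (−) for Snhg5 and chr19:8723437-8723536 (+) for Snhg1.
Gas5: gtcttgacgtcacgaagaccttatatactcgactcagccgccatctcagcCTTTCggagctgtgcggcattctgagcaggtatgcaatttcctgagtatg
Snhg8: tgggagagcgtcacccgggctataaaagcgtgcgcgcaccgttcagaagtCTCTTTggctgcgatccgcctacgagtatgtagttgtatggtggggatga
Snhg12: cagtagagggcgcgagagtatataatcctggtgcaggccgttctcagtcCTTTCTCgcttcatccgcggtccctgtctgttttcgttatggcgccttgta
Snhg3: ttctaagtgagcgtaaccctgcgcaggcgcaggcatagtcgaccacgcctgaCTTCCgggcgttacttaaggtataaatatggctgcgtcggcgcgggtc
Snhg5: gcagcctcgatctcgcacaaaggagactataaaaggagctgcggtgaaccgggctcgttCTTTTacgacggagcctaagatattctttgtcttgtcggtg
Snhg1: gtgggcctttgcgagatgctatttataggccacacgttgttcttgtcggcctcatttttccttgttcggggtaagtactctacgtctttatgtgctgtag

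In Gas5 and Snhg8 the motif could be read from the RefSeq start itself, and in both the base before the start was also a pyrimidine. With a shift of up to 10 bases allowed, 5 of the 8 windows of these 7 genes held the motif, but so did 30.7% of all 32851 RefSeq windows. The letters TATAA stood on the gene's strand within the 50 bases before the start in Snhg5, Snhg8 and Snhg12, that is in 3 of the 8 windows, and in 4.93% of all windows. Anywhere in the 300-base window and on either strand, TATAA was in 6 of the 8 and in 24.9% of all. In the 3 windows with TATAA before the start it did not overlap the capitals. These matches describe letters and not use of a site.

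The annotation placed 32 snoRNA genes inside the 8 hosts on the same strand, and each lay in an intron of at least 1 host transcript. Pairs of overlapping records, of Snord80 in Gas5 and of Snora16a in Snhg12, are counted as separate genes in these numbers. Among the 32, whether a gene was counted went with its length. Of the 24 under 100 nt, all with lengths from 60 to 93 nt, 1 had more than 3 counts in every replicate (4.17%) and 16 had 0 counts in every replicate. Of the 8 of 126 nt or longer, 7 did. Effective length, the number of positions at which a fragment can start, was listed as 0 in every replicate for 18 of the 24 short ones, and the labels' protocol includes a size selection, whose part in the result was not tested. A count of 0 here does not show that a snoRNA is absent. Among snoRNA genes in the 209 protein-coding hosts, 103 of 209 of 100 nt or longer and 13 of 110 shorter ones passed the same floor. Rcc1, which overlaps Snhg3 on the same strand, is among these hosts, so the sets of hosts are not fully separate. Over all annotated snoRNA genes the shares were closer, at 11.6% of 1096 and 4.11% of 462, and 919 of the 1096 had 0 counts in every replicate.

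The short box C/D genes had few counts. Gas5 carries 10 short genes, and only Gm22357 was counted in each replicate, with 28.5, 7.77 and 16.6 estimated counts. Its sequence, like those of Snord87 of Snhg6 and of Snord50a and Snord50b of Snhg5, shows the C box (TGATGA) and D box (CTGA), in capitals; positions are chr1:161036057-161036139 (+), chr1:9942463-9942549 (−), chr9:88521529-88521600 (−) and chr9:88521797-88521868 (−).
Gm22357: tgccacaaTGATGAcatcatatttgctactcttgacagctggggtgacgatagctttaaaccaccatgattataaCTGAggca
Snord87: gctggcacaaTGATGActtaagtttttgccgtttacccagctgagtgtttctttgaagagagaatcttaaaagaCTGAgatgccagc
Snord50a: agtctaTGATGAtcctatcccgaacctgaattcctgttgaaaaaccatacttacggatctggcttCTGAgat
Snord50b: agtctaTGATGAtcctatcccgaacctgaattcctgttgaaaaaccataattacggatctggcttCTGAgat
Snord50a and Snord50b differ at 1 of 72 positions, had 0 and at most 0.9 counts, too few to compare. Snord87 had 4, 2 and 2 counts. Of the 8 snoRNA genes of Snhg1, the 126-nt Snord22 was the only one above the floor, at 25.3, 24.1 and 32.8 counts.

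The box H/ACA genes, all longer, had most of the reads. Snora73a and Snora73b, the E1/U17 snoRNAs that act in ribosomal RNA cleavage and not as modification guides, lie in Snhg3 at chr4:132352775-132352979 and chr4:132352322-132352526 (− strand). Snora73a had 486, 571 and 965 CPM and Snora73b 433, 511 and 908 CPM, against 32.2, 28.4 and 24.2 CPM for Snhg3 itself. The 2 sequences differ at 7 of 205 positions (96.6% identity), so the division of reads between them is uncertain. Capitals mark the ACA box.
Snora73a: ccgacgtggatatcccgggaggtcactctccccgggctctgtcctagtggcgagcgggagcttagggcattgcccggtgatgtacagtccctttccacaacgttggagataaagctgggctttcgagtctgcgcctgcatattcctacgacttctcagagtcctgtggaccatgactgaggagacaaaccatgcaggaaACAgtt
Snora73b: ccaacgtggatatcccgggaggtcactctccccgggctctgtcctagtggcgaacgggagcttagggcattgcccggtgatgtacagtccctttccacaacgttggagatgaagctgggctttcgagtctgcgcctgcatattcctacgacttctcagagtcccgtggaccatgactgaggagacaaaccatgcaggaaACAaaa

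In Snhg12, Snora44 (chr4:132309941-132310069) had 423, 193 and 354 counts and Snora61 (chr4:132310240-132310369) 128, 51.1 and 122. The third, Snora16a, is annotated as a pair of overlapping records of 136 and 137 nt; the shorter one had 56.3, 37.0 and 55.8 counts and the longer one 0. Snord99, the box C/D gene of the same host, had 0 counts in every replicate. Snora24 (chr3:123507937-123508066, − strand), the sole snoRNA of Snhg8, had 102, 63.2 and 126 counts. Snora61 and Snora24 are printed as the pair of 130-nt guides that were counted at like levels from different hosts.
Snora61: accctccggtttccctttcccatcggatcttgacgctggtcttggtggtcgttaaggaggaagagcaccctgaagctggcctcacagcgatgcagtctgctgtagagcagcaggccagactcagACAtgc
Snora24: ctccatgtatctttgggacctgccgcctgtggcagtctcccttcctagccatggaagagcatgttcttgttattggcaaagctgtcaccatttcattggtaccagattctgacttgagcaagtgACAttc

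**Figure D3:**
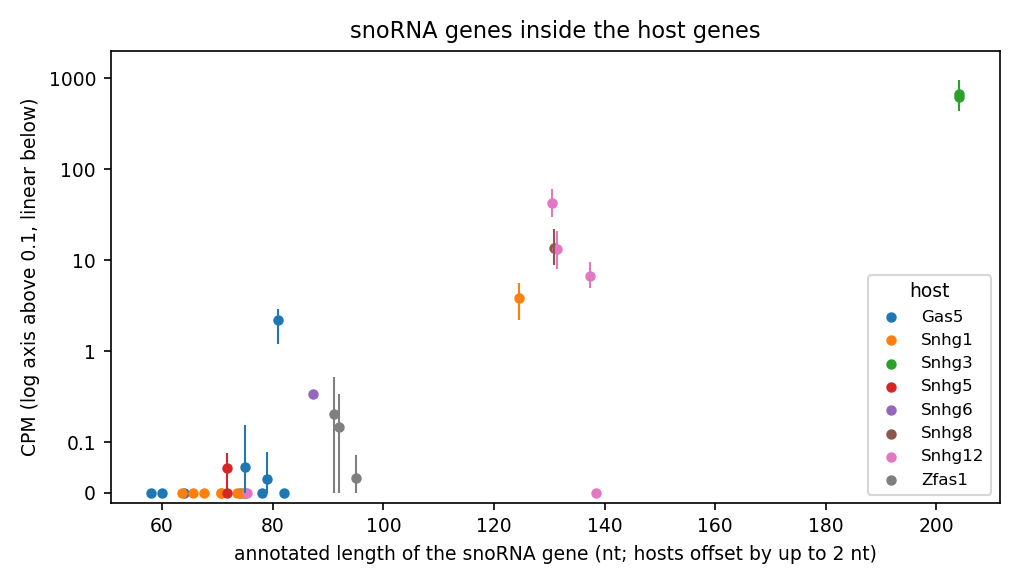
CPM (vertical axis, log above 0.1) of each of the 32 snoRNA genes against its annotated length in nt, coloured by host and offset by up to 2 nt to part the hosts; points are means and lines run from the lowest to the highest of 3 replicates. Genes under 100 nt sit at or near 0 apart from Gm22357, and Snora73a and Snora73b stand above all others.

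Per 100 counts of the host, Snhg3 had 2853, 3810 and 7752 snoRNA counts in replicates 1, 2 and 3, Snhg12 had 142, 103 and 260, and Snhg8 had 60.1, 49.1 and 98.7. The other 5 hosts stayed between 0 and 4.09 in every replicate. Over all 8 hosts the value was 277 ± 129 (SD, n = 3), and without Snhg3 it was 17.9 ± 8.75, so 1 host sets it. Snora73a and Snora73b also lie inside the protein-coding gene Rcc1 on the same strand, so Snhg3 is not their only annotated host. Rcc1 had 1039, 534 and 519 counts in replicates 1, 2 and 3.

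**Figure D4:**
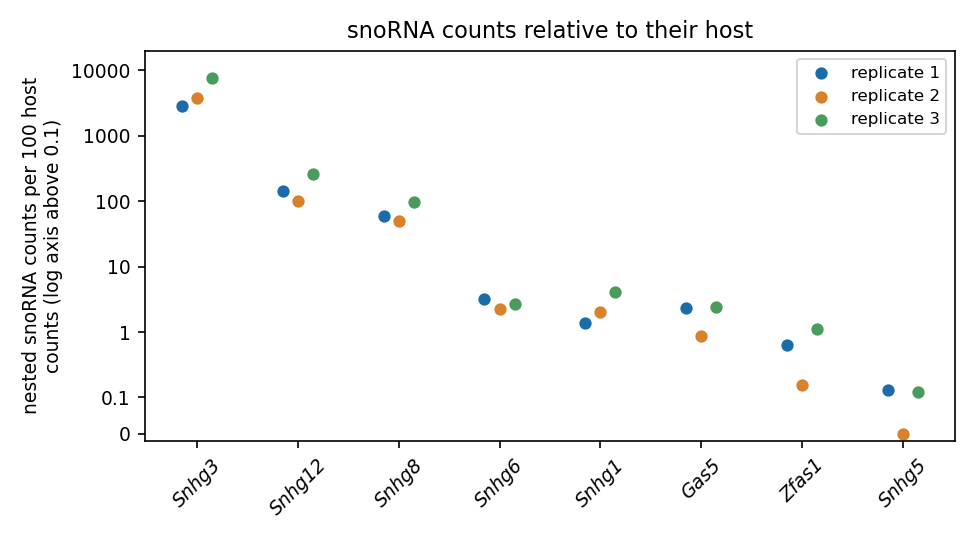
Estimated counts of nested snoRNA genes per 100 estimated counts of the host (vertical axis, log above 0.1), one column per host, with points for the 3 replicates. Snhg3, Snhg12 and Snhg8 stand apart from the other hosts, and in these 3 hosts replicate 3 is the highest.

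Host and snoRNA estimates were linked. RSEM, the estimator named in the submitters' processing notes, divides a read that matches several genes, which leaves counts that are not whole numbers. Within 0.005 counts, those of 7 of the 8 hosts were not whole (all but Snhg6), whereas 83.6% of 9221 other expressed genes with several transcripts were whole in every replicate. In 6 of these 7 the sum of the host and its snoRNA genes was whole in all 3 replicates within 0.02 counts, a wider tolerance since rounded values are added. Snhg8 and Snora24, for example, had 169.26 and 101.74 counts in replicate 1, which add to 271. Gas5 with its 10 snoRNA genes gave sums of 1276, 915 and 732. Snhg5 was the exception, with a sum of 689.73 in replicate 1. Among the 85 protein-coding hosts with counts that were not whole, the sum was whole in 13. The snoRNA genes took from 33.0% to 49.7% of the summed counts of host and snoRNA genes at Snhg8. They took from 50.6% to 72.2% at Snhg12 and from 96.6% to 98.7% at Snhg3. How many of these reads matched both host and snoRNA was not measured, so the levels of these 3 hosts may depend on how reads were divided. In GENCODE, Snora73b overlaps an exon of 0 and Snora73a of 1 of the Snhg3 transcripts. At Gas5, Snhg1, Snhg6 and Zfas1 the share was at most 3.93%. In GENCODE, 30 of the 32 snoRNA genes also overlap an exon of some host transcript, in part or in full. Of the transcripts listed there, 20 of 25 of Gas5 and 14 of 18 of Snhg1 are typed as retained intron.

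None of the 8 hosts passed a test for more variation between replicates than genes of like abundance have. In edgeR's goodness-of-fit test over 12577 genes, 1.84% passed at a Benjamini-Hochberg adjusted p of 0.05, and 0 of the 8 did; each had an adjusted p of 1.00. At an unadjusted p of 0.05, 0 of the 8 and 6.96% of all genes passed, and edgeR with DESeq2's size factors or without the filter also called 0 of the 8. The smallest unadjusted p in edgeR was 0.111 for Snhg8, which was lowest in replicate 1, at 14.8, 19.9 and 22.1 CPM. Snhg5 was the steadiest in CPM, at 60.3, 57.3 and 57.9. In TPM its highest replicate was 1.49 times its lowest, against 1.22 times for Snhg8. With the length trend removed, Snhg3 had an unadjusted p of 0.0484 and an adjusted p of 0.757 in edgeR, and without replicate 3 Gas5 had an unadjusted p of 0.0299 and an adjusted p of 0.999.

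TPM was lowest in replicate 3 for 7 of the 8 hosts, all but Snhg8, against 64.3% of tested genes of like length and 75.6% of the 11000 expressed genes. In CPM scaled by TMM, a normalization of library size, replicate 3 was the lowest for 3 of the 8, against 18.2% of the 2012 tested genes of like length and 40.4% of all tested genes. Those 3 were Snhg1, Snhg3 and Zfas1, with log2 differences from the mean of replicates 1 and 2 of −0.14, −0.15 and −0.14. Snhg8 was the other extreme at 0.53. The median over the 8 was 0.07, and over the genes of like length 0.21. Gene length moved with this difference, and its part in the result was not tested; with the length trend removed the median over the 8 turned to −0.16 and Snhg3 went to −0.59.

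**Figure D5:**
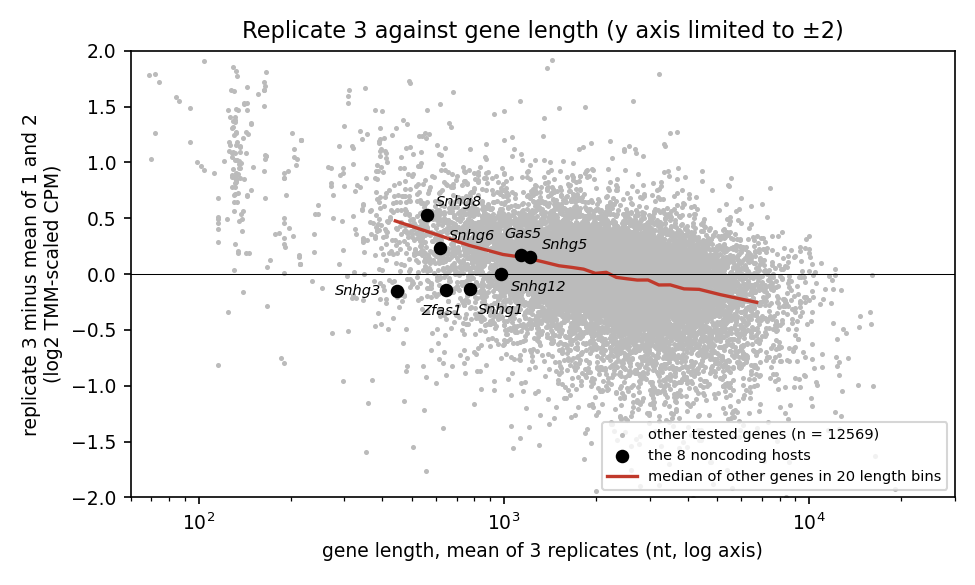
Difference of replicate 3 from the mean of replicates 1 and 2 in log2 TMM-scaled CPM, against mean gene length in nt (log axis), for the tested genes (grey), their median in length bins (line) and the 8 hosts (black). The median of short genes lies above 0; Snhg3, Zfas1 and Snhg1 lie farthest below that line and Snhg8 farthest above it.

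All 7 nested snoRNA genes that could be tested were highest in replicate 3, by 1.01 to 1.37 in log2 TMM-scaled CPM over the mean of the other replicates. So were 95.9% of 122 tested snoRNA genes and 40.6% of all tested genes. Snora24, Snora61 and Snora44 varied beyond the trend (edgeR adjusted p of 0.011, 0.0175 and 0.0291), while Snora73b had an adjusted p of 0.0544 and Snora73a 0.103; 30.3% of tested snoRNA genes passed. None of the 7 passed without replicate 3, without replicate 2 (smallest edgeR adjusted p 0.147) or with the length trend removed. Of the 7, only Snora61 passed without replicate 1 (edgeR adjusted p 0.0432) and only Snora24 without the filter on low counts (edgeR adjusted p 0.0374).

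The length that RSEM assigns to a gene averages its transcripts by their estimated abundance, so it changes when the estimated mix changes. For Snhg5 it was 1284, 1043 and 1323 nt, a range of 23.0% of its mean and the widest of the 8. Snhg3 and Zfas1 were steady, with ranges of 2.85% and 2.96%. The median over the 8 was 9.66%, and 9.82% over the 9221 other expressed genes with several transcripts. Snhg5 had 28 transcripts in the tables but 6 in GENCODE vM21, so its exons are known here only in part; Zfas1 had 6 against 5, and for the other 6 hosts the lists were the same.

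Several hosts share their start region or their body with another gene. Snhg1 starts 106 bp from Slc3a2 on the opposite strand, which encodes the heavy chain of amino acid transporters, and the 2 genes do not overlap. Slc3a2 had 104.8, 73.7 and 54.8 TPM (77.8 ± 25.3), and Snhg1 was higher by 0.24 ± 0.22 in log2(TPM + 1), a difference near the size of its spread although it was positive in each replicate. Without scaling by length the pair turned round, and Snhg1 was lower in each replicate, with a difference of −0.86 ± 0.19 in log2(CPM + 1). Gas5 overlaps the first part of the zinc finger gene Zbtb37, whose start lies 427 bp from that of Gas5, and was higher by 4.34 ± 0.24 in log2(TPM + 1) but by 1.18 to 1.82 in log2(CPM + 1) over the replicates. Zbtb37 had 1.49, 1.12 and 1.04 TPM. Zfas1 overlaps the start of Znfx1, which encodes an RNA helicase-like protein, by 82 nt and was higher by 4.16 ± 0.23 in log2(TPM + 1) and by 1.91 ± 0.24 in log2(CPM + 1). Znfx1 had 1.89, 1.94 and 0.84 TPM. Snhg3 overlaps Rcc1 on the same strand over 5592 nt, a span that also holds Snora73a and Snora73b. Rcc1 encodes the exchange factor of Ran and had 15.8 ± 3.08 TPM. Snhg6 overlaps the end of Mcmdc2 by 127 nt, a gene at 0.457 ± 0.249 TPM. Whether the counting used strand is not given in the sources used here, so reads in the opposite-strand overlaps may be assigned to either gene. Snhg3 and Rcc1 lie on the same strand, so the strand of a read could not part them.

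The spliced hosts hold short reading frames. In the GENCODE transcript with the most exons, the longest frame from an ATG was from 35 codons in Snhg8 to 79 in Zfas1, with a median of 47.5 against 72 in 211 other expressed long noncoding genes with introns. An exon junction at least 50 nt after the stop codon of that frame, a layout that can mark RNAs for nonsense-mediated decay, was present in 6 of 8 hosts and in 30.3% of the 211. Gas5 had 4 such junctions in 12 exons and Snhg12 had 3 in 5. Zfas1 and Snhg5 had none. The transcripts read had a median of 5 exons in the hosts and 4 in the 211, and the part of exon number in this difference was not tested. The longest frame among the 211 had 1225 codons, so that class, set by annotated type, may hold coding genes. Which frame is translated was not measured.

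Genes for the proteins that act on these RNAs were all expressed. The 14 listed decay genes had a median log2(TPM + 1) of 3.08 ± 0.50, beside 2.72 ± 0.29 over all expressed protein-coding genes. Magoh, a core part of the exon junction complex, had 59.4 ± 7.34 TPM and Upf1, the central helicase, 8.93 ± 3.76. The box C/D proteins were higher, with a median of 6.11 ± 0.19 over 4 genes. Nop56, itself the host of 5 snoRNA genes, had 146 ± 10.3 TPM and the methyltransferase Fbl 36.2 ± 8.68. The box H/ACA proteins had a median of 5.43 ± 0.11 over 4 genes, with the pseudouridine synthase Dkc1 at 53.8 ± 7.07 TPM. All 10 matched assembly factors and all 7 matched factors of snoRNA release were above 1 TPM, with medians of 2.82 ± 0.26 and 3.67 ± 0.24. The assembly ATPase Ruvbl2 had 40.4 ± 6.71 TPM and the lariat debranching enzyme Dbr1 4.97 ± 0.695.

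Of the regulators of TOP RNAs, all 8 were above 1 TPM, with a median of 3.95 ± 0.51. Larp1, which binds the TOP motif, had 25.5, 18.0 and 8.87 TPM. Eif4ebp2, a repressor of the cap-binding factor, had 20.3, 14.9 and 6.36 TPM and was the one gene of all these lists that varied beyond the trend (edgeR adjusted p of 0.0276). It no longer passed when any 1 replicate was left out, with edgeR adjusted p of 0.119, 0.183 and 0.999 without replicates 1, 2 and 3. Eif4ebp1 of the same family had 136 ± 17.7 TPM and did not pass.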

How the data were processed

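RNA of E14 cells was sequenced in 3 replicates, grouped and numbered by title. The submitters' processing notes name STAR, RSEM and the build mm10; versions, annotation and strand setting are not given in the sources used here. Per the file headers, the authors deposited expected counts without normalization, TPM scaled by effective length, and FPKM, which was not used, with gene length and effective length.

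Genes, transcripts and snoRNA genes came from GENCODE vM21 (GRCm38, the sequence of mm10) by Ensembl ID. Sequences came from the GRCm38.p6 genome and, for promoters, RefSeq. Counts were rounded for edgeR 4.0.16 (R 4.3.3; TMM, filterByExpr, trended dispersion, goodness-of-fit, Benjamini-Hochberg over all genes tested), which was tested on simulated data. Levels are log2(TPM + 1). A floor of 3 counts is 0.263, 0.464 and 0.518 CPM in replicates 1, 2 and 3; intervals and floors cover counting error only. Genes of like length had a mean length from 448 to 1217 nt, the range of the hosts.

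The genes named were the hosts, their snoRNA genes, genes on the opposite strand starting within 1000 bp, the 3 genes of at least 500 nt nearest in profile, and listed pathway genes; overlapping genes were added later. Members and lists were chosen with earlier results of these data known. Of the listed symbols, Snhg4, Snhg7, Snhg16, Nopchap1 and Papd5 were not matched. Alternatives changed normalization (DESeq2 1.42.0), filter, pseudocount, unit, denominator, length trend, distance, start definition and replicates.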

Additional observations from a re-analysis of the deposited data

How the results depend on the processing

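Across 8 results, 48 alternatives were run, and 5 were chosen after seeing the data. By the thresholds set, 28 stayed within the allowed spread, 16 moved and 4 reversed; the cause was not tested unless named. No host varied beyond the trend under any of 6 alternatives (0 in each). The median level of 4.72 became 5.58 in CPM, 6.14 with genes of effective length under 100 nt left out of the denominator and 7.04 with protein-coding genes as the denominator, and was from 4.58 to 4.90 without 1 replicate. The difference from other long noncoding genes became 3.32 with a pseudocount of 0.1 and 2.60 in CPM. It became 4.62 over those with any counts and 1.31 at a mean TPM of at least 5. The difference from protein-coding hosts reversed to −1.03 in CPM. It became 1.34 over those hosts with any counts and 1.16 without ribosomal protein genes. Nested snoRNA per 100 host became 3530 in summed TPM and 17.9 without Snhg3, and was from 203 to 316 without 1 replicate. Genes with the pyrimidine run were 1 with at least 6 pyrimidines and 7 at any transcript start. The replicate 3 difference of 0.07 reversed to −0.16 with the length trend removed, −0.51 in TPM and −0.14 against genes of like length. The median difference of 4.10 from the 3 opposite-strand partners became 4.74 with a pseudocount of 0.1, 1.54 in CPM and 0.24 for the pair that does not overlap. Values below the floor of 3 counts were not ordered.

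No paired analysis was possible because the RNA libraries form a single group.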
